A study of Mus musculus with 72 samples.

Results

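Transcript levels of 10 genes of methyl transfer and homocysteine remethylation were examined in liver and in the suprachiasmatic nucleus (SCN), the seat of the master circadian pacemaker in the hypothalamus. The genes were taken by symbol: Gnmt, Ahcy, Ahcyl1, Ahcyl2, Bhmt, Bhmt2, Mtr, Mtrr, Pemt and Gamt. All 10 are rows of the liver count table, of 22823 genes, and 7 are rows of the SCN count table, of 15759 genes. Gnmt, Bhmt and Bhmt2 have no row there. Over both tables these are 10 of 24091 genes.

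The mice were C57BL/6, 8 to 12 weeks old and singly housed, with food at will. For 11 days their food was either a diet lacking methionine and choline (MCD) or an isocaloric control diet, and both had a light-dark cycle for 10 days and constant darkness on the last day. Each of the 6 circadian times, CT0 to CT20 at 4 h spacing, had 3 libraries per diet and tissue, from 2 males numbered 1 and 2 and 1 female numbered 3. Both diets were thus represented by 18 libraries in each tissue. Liver RNA came from the left lobe and the SCN was cut out of stained sections by laser microdissection. Whether the liver and SCN libraries of a number came from the same mouse is not stated, and the protocol text speaks of male mice although 12 libraries per tissue are labelled female.

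S-adenosylmethionine, made from methionine, gives its methyl group to acceptors and leaves S-adenosylhomocysteine, which a hydrolase splits into adenosine and homocysteine. Homocysteine is made back into methionine either with a methyl group of betaine, a product of choline oxidation, or with a methyl group carried by folate and cobalamin. In liver the synthesis of creatine and of phosphatidylcholine consumes much of the methyl supply, and glycine methylation is known as an overflow for excess S-adenosylmethionine. The members fall into 3 roles: methyl users (Gnmt, Gamt, Pemt), the hydrolase and its relatives (Ahcy, Ahcyl1, Ahcyl2), and remethylation (Bhmt, Bhmt2, Mtr, Mtrr).

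The members lie on 7 chromosomes of GRCm38, and 4 of them lie on chromosome 13. Bhmt (93616675 to 93637961) and Bhmt2 (93655720 to 93674302) are neighbours on the minus strand, 17.758 kb apart. Mtr (12182712 to 12258113) and Mtrr (68560780 to 68582149) lie on the same chromosome and strand. Gnmt lies on chromosome 17 (46725664 to 46729168), Gamt on chromosome 10 (80258151 to 80261012) and Pemt on chromosome 11 (59970614 to 60046489). Ahcy lies on chromosome 2 (155059310 to 155074497), Ahcyl1 on chromosome 3 (107663118 to 107696560) and Ahcyl2 on chromosome 6 (29768011 to 29912310), the only member on the plus strand.

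The 250 bases before the RefSeq start (GRCm38.p6) are shown, 5′ to 3′ along the gene, for the 3 members with the largest differences between diets in liver, all lower on MCD, and for Mtrr, the 1 member called higher. Capitals mark a CCAAT box (CCAAT, or ATTGG on the other strand).
Gnmt, chr17:46729166-46729415, minus strand: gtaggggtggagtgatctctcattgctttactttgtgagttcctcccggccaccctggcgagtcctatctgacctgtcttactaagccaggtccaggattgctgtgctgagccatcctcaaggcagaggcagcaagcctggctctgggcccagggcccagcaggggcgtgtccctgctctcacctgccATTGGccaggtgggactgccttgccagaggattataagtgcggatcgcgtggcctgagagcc
Gamt, chr10:80261013-80261262, minus strand: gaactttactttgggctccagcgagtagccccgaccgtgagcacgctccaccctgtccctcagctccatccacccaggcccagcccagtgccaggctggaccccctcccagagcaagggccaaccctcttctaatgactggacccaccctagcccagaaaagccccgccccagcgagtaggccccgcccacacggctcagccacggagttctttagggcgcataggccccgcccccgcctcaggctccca
Ahcy, chr2:155074498-155074747, minus strand: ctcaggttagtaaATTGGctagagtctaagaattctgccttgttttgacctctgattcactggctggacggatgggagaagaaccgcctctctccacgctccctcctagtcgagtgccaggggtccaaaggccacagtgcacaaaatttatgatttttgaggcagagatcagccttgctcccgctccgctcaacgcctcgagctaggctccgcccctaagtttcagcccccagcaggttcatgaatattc
Mtrr, chr13:68582170-68582419, minus strand: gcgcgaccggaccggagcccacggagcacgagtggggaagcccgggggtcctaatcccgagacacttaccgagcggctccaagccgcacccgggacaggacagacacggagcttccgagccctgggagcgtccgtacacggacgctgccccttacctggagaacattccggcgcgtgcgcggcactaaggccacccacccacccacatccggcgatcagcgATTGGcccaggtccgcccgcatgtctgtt
The search covered 300 bases (250 before and 50 after each start, 16 windows for the 10 members) on both strands. Gnmt held a CCAAT box at position -62 from the start, Mtrr at -29 (at -94 in its second window), Ahcy at -237, Mtr at -101 and -151, Bhmt at -56 and 33, and Pemt at -248. Of all 32851 RefSeq windows of this length, 37.4% held these 5 letters, and no motif searched was found in the windows of Gamt and Bhmt2. The letters TATAAA (13.6% of all windows) were found in 1 window each of Ahcyl1 and Ahcyl2, and TGACNNNGC (an NRF2-type element, 12.4% of all) in 1 window of Ahcyl1. No member window held CACGTG (E-box, 7.15% of all windows), TTATGNAA (D-box, 3.38%) or TGATGNAA (an amino acid response element, 3.97%). The Mtrr window had 37 CpG pairs, against 11 in Gnmt, 14 in Gamt and 13 in Ahcy and a median of 7 over all windows.

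Total gene counts were 52.6 to 86.7 M per liver library and 23.3 to 79.8 M per SCN library. Levels are given as normalised CPM, the count per 1e+06 counts of a library after TMM scaling, and a gene was called at a Benjamini-Hochberg adjusted p under 0.05 over all genes of the tissue in edgeR's quasi-likelihood test. The level of mt-Nd6, a mitochondrial transcript, split the liver libraries into 2 kinds: 21 libraries (8 control, 13 MCD) at 41.6 to 119 CPM and 15 (10 control, 5 MCD) at 414 to 925 CPM. The liver library called control CT08 a, from a male, had the lowest control level of 7 members. The tissue labels were checked on cell type markers: all 8 genes of an SCN neuron list were in the SCN table, at a summed median of 2507 CPM on the control diet, and a hepatocyte list summed to 4.04 to 31.7 CPM there. Liver held 57030 to 123829 CPM of the hepatocyte list, and 6 of the 8 SCN neuron genes had no row in the liver table. The other two, Rgs16 and Lhx1, summed to 7.31 to 473 CPM in liver, nearly all of it Rgs16. In SCN the pericentral hepatocyte list summed to 1537 to 3188 CPM, mostly from Glul and Slc1a2, which astrocytes are also known to express, and Cyp2e1, Cyp1a2 and Rhbg of that list had no row there. A list of the hypothalamus outside the SCN summed to 64.8 to 222 CPM in control SCN, mostly from Oxt and Trh. An oligodendrocyte list had a summed median of 1762 CPM there.

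Per kilobase of exon, Gnmt was the most abundant member in control liver, at 972 ± 248 CPM per kb (SD, n = 18). Bhmt (440 ± 164) and Ahcy (416 ± 152) followed at levels whose ranges overlapped. Gamt (121 ± 30.2), Pemt (112 ± 15.4) and Bhmt2 (103 ± 18.3) came next and did not differ beyond their spread. Ahcyl1 stood alone at 17.8 ± 1.65 CPM per kb, with no overlap with the members above or below it. Mtr (2.12 ± 0.197), Mtrr (1.40 ± 0.334) and Ahcyl2 (1.27 ± 0.497) were the scarcest, with overlapping ranges. On MCD the order was the same except that Gamt, at 64.6 ± 13.9 CPM per kb, fell behind Pemt and Bhmt2.

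In liver, transcripts of most of these genes were lower on MCD, those of the glycine and guanidinoacetate methyltransferases most of all, while methionine synthase reductase was higher. Averaged over the 6 times, 7 of the 10 members passed the test, 6 lower (Gnmt, Gamt, Ahcy, Ahcyl1, Ahcyl2, Bhmt2) and 1 higher (Mtrr). Of all 20249 liver genes tested, 46.6% passed, 25.3% higher and 21.2% lower. The estimate lay below 0 in 9 of 10 members, and their median log2 difference was -0.31, against 0.02 over all genes tested.

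Gnmt encodes glycine N-methyltransferase, which turns S-adenosylmethionine and glycine into sarcosine. Its level in control liver ran from 582 to 1945 CPM (median 1124, mean 1172 ± 299, n = 18). On MCD it ran from 248 to 916 CPM (median 543, mean 568 ± 183, n = 18). The lowest control value was that of control CT08 a, and all 18 MCD libraries lay below the other 17 control libraries, the lowest of which had 918 CPM. Of all liver genes tested, 0.993% had all MCD libraries below those 17, and 0.217% below all 18. The difference was -1.07 on the log2 scale (SE 0.136, edgeR adjusted p = 4.45e-07), or 2.10-fold lower, and the mean was lower at 6 of 6 times.

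Gamt encodes guanidinoacetate N-methyltransferase, the last enzyme of creatine synthesis. In control liver it ran from 86.4 to 242 CPM (median 178, mean 175 ± 43.6), and on MCD from 53.7 to 139 CPM (median 93.7, mean 93.2 ± 20.1, n = 18 each). Of the control libraries, 14 lay above every MCD library. The difference was -0.89 (SE 0.114, edgeR adjusted p = 5.61e-07), 1.86-fold lower, and lower at 6 of 6 times.

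Pemt encodes phosphatidylethanolamine N-methyltransferase, which makes phosphatidylcholine by methylation in liver. It ran from 164 to 294 CPM in control liver (median 227) and from 151 to 282 CPM on MCD (median 227), and the groups overlapped almost wholly. The difference was -0.06 (SE 0.0600, 95% interval -0.17 to 0.06, edgeR adjusted p = 0.475). Of the methyl users, it alone did not pass the test.

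Ahcy encodes S-adenosylhomocysteine hydrolase. It ran from 414 to 2021 CPM in control liver (median 1098, mean 1168 ± 427) and from 391 to 1221 CPM on MCD (median 738, mean 756 ± 231, n = 18 each). The groups overlapped, with 7 control libraries above every MCD library. The difference was -0.60 (SE 0.111, edgeR adjusted p = 6.99e-05), 1.52-fold lower, and lower at 6 of 6 times.

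Ahcyl1 and Ahcyl2 encode hydrolase-like proteins; Ahcyl1, also called IRBIT, binds the inositol trisphosphate receptor. Ahcyl1 ran from 90.0 to 133 CPM in control liver (median 119) and from 85.1 to 118 CPM on MCD (median 101), a difference of -0.22 (SE 0.0431, edgeR adjusted p = 1.70e-04). This was 1.16-fold lower, with 10 control libraries above every MCD library. Ahcyl2 ran from 14.4 to 46.9 CPM (median 19.7) and from 12.5 to 22.1 CPM (median 18.1), a difference of -0.36 (SE 0.0922, edgeR adjusted p = 0.00236). Its medians were close, and 6 control libraries exceeded all those on MCD.

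Bhmt and Bhmt2 encode the betaine and the S-methylmethionine homocysteine methyltransferases. Bhmt spread most of all members, from 409 to 3809 CPM in control liver (median 2522, mean 2534 ± 946) and from 299 to 4765 CPM on MCD (median 1856, mean 2034 ± 1137). Its groups overlapped, and 2 MCD libraries lay above every control library. The difference of -0.42 did not pass the test (SE 0.214, 95% interval -0.84 to 0.00, edgeR adjusted p = 0.113). Bhmt2 ran from 116 to 305 CPM (median 261) and from 141 to 309 CPM (median 213), with a difference of -0.27 (SE 0.0952, edgeR adjusted p = 0.0211). Its groups overlapped too, and its mean was lower on MCD at 6 of 6 times.

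Mtr encodes methionine synthase, the cobalamin-dependent enzyme that takes the methyl group from folate, and Mtrr the reductase that keeps its cobalamin active. Mtr ran from 14.3 to 20.4 CPM in control liver (mean 18.1 ± 1.68) and from 14.2 to 20.2 CPM on MCD (mean 17.1 ± 1.65), a difference of -0.09 (SE 0.0372, edgeR adjusted p = 0.0590). Mtrr ran from 3.87 to 9.74 CPM (median 7.87, mean 7.30 ± 1.73) and from 6.22 to 13.2 CPM (median 8.87, mean 9.20 ± 2.08). Its difference was +0.35 (SE 0.0647, edgeR adjusted p = 8.67e-05), or 1.27 times the control level, higher at 6 of 6 times, with 7 MCD libraries above every control library.

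**Figure D1:**
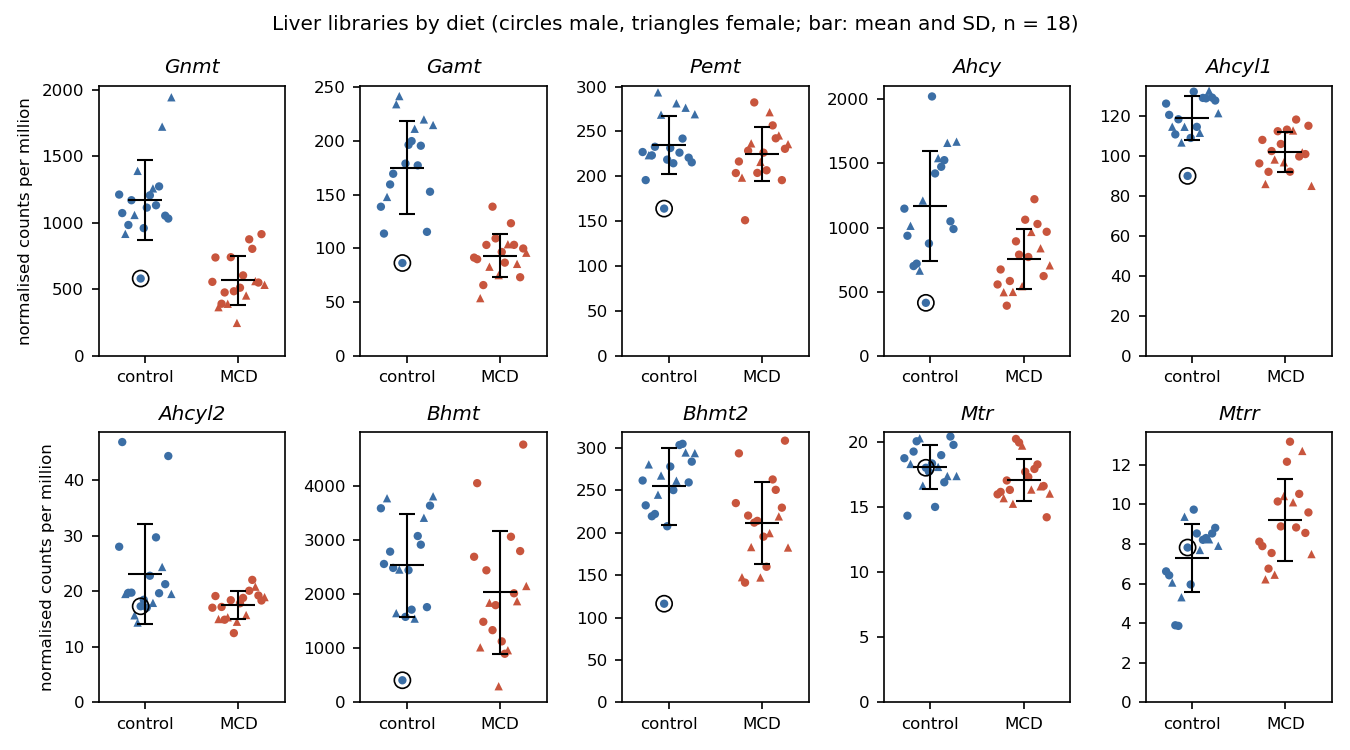
Normalised CPM (linear axis from 0) of the 10 members in each of the 36 liver libraries, by diet. Circles are male and triangles female libraries, the bar and whiskers give the mean and SD of 18 libraries, and the ring marks control CT08 a, which is the lowest control library for Gnmt, Gamt, Pemt, Ahcy, Ahcyl1, Bhmt and Bhmt2.

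Bhmt was called only in the fit without control CT08 a, of the fits that left out 1 library. Without that library, 9 of 10 members were called (48.6% of all genes), with Bhmt at -0.52 (edgeR adjusted p = 0.0214) and Mtr at -0.09 (adjusted p = 0.0492) added. Gnmt was then at -1.14, Gamt at -0.96 and Ahcy at -0.67. With each of the 36 libraries left out in turn, the 7 calls held, and Mtr was called in 17 of these fits, with adjusted p down to 0.0096 (without control CT00 2). Mtr was also called with all libraries under RLE scaling (adjusted p = 0.0404) and by DESeq2 (adjusted p = 0.0280). Bhmt2 lost its call without replicate 1 (-0.28, adjusted p = 0.150) and without replicate 3, the females (-0.12, adjusted p = 0.371). With library totals alone in place of TMM the median of all genes was 0.27 higher on MCD, and Pemt (0.20, edgeR adjusted p = 3.57e-04) and Mtr (0.17, adjusted p = 0.00902) were called higher, while Ahcyl1 was at 0.04 (adjusted p = 0.294), so the directions of these 3 members depend on the scaling. Ahcyl2 (-0.096, adjusted p = 0.404) and Bhmt2 (-0.015, adjusted p = 0.890) were not called under that scaling, which left Gnmt, Gamt and Ahcy as the members called lower. Gnmt, Gamt and Ahcy were lower and Mtrr higher under each scaling run.

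The mt-Nd6 kinds were unevenly spread over the diets. The share of all genes called within each kind is not given here, so the calls within them are not set beside it. Within the low kind Gnmt was at 1265 ± 416 CPM in 8 control and 584 ± 202 CPM in 13 MCD libraries, and within the high kind at 1098 ± 145 CPM in 10 and 525 ± 133 CPM in 5 libraries. Its difference was -1.15 and -1.09 in these kinds (edgeR adjusted p = 8.51e-05 and 3.03e-04). Gnmt, Gamt, Ahcy and Ahcyl1 were called in both kinds, with Ahcyl2 and Mtrr called in the low but not in the high kind, which has 5 MCD libraries. The differences were not smaller there: Ahcyl2 was at -0.23 in the low and -0.52 in the high kind (adjusted p = 0.0446 and 0.0870), and Mtrr at 0.30 in both (adjusted p = 0.0140 and 0.162). Bhmt2, at -0.27 over all libraries, was called in neither kind (-0.29 in the low and -0.23 in the high, edgeR adjusted p = 0.109 and 0.212). It was not called with the kind as a term either (-0.24, adjusted p = 0.0509).

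Markers of other cells moved with diet in liver. Of a macrophage list, 6 of 6 genes were higher on MCD, with a summed level of 208 to 506 CPM (median 260) on the control diet and 273 to 610 CPM (median 347) on MCD. Of an erythrocyte list, 4 of 5 were lower (130 to 453 and 93.7 to 273 CPM), and of a periportal hepatocyte list 4 of 6 were lower (3250 to 6881 and 2575 to 5787 CPM). The hepatocyte list had 4 of 6 genes lower, at a summed median of 102172 CPM on the control diet and 103711 CPM on MCD. Most of that sum was Alb, at a mean of 73124 CPM on the control diet and 79903 CPM on MCD. The pericentral list had 1 of 6 lower. Of all liver genes tested, 25.3% were called higher and 21.2% lower. In bulk tissue, fewer cells of a type and less RNA per cell cannot be told apart, and the part of these markers in the members' differences was not tested.

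The differences by time came from 3 libraries per diet. Of 60 pairs of a member and a time, 14 passed the test in edgeR: 3 of 10 members at CT0 (12.6% of all genes), 4 at CT4 (18.2%), 3 at CT12 (15.2%), 1 at CT16 (12.5%) and 3 at CT20 (11.3%). None passed at CT8 (1.30% of all genes), where 4 members had an unadjusted p under 0.05 and DESeq2 called 1, Gnmt. Gnmt was called at CT4 (-1.35, edgeR adjusted p = 0.00597), CT12 (-1.19, adjusted p = 0.0163) and CT20 (-1.03, adjusted p = 0.0433). Gamt was called at CT4 (-1.15), CT12 (-1.08) and CT16 (-0.91), with edgeR adjusted p of 0.00571, 0.0108 and 0.0315. Ahcy was called at CT0 (-0.84, edgeR adjusted p = 0.0408) and CT12 (-0.83, adjusted p = 0.0381), and Mtrr at CT4 (0.66, adjusted p = 0.00516). Ahcyl1 was called at CT0 and CT20, Ahcyl2 at CT0 and Mtr at CT4 and CT20, all lower. When each library was left out in turn, 11 of the 14 calls were lost in at least 1 fit, and the 3 kept in all were Gnmt, Gamt and Mtrr at CT4. Gnmt at CT20 was at -0.59 without control CT20 3 (adjusted p = 0.288), and Ahcyl2 at CT0 at -0.50 without control CT00 2 (adjusted p = 0.166). Gnmt at CT12 was lost without control CT12 3 (adjusted p = 0.0523) and Gamt at CT12 without MCD CT12 2 (adjusted p = 0.0535). Without control CT08 a the count was 22, and at CT8 Gnmt (-1.32, edgeR adjusted p = 0.0178) and Gamt (-0.95, adjusted p = 0.0272) were called (5.86% of all genes).

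**Figure D2:**
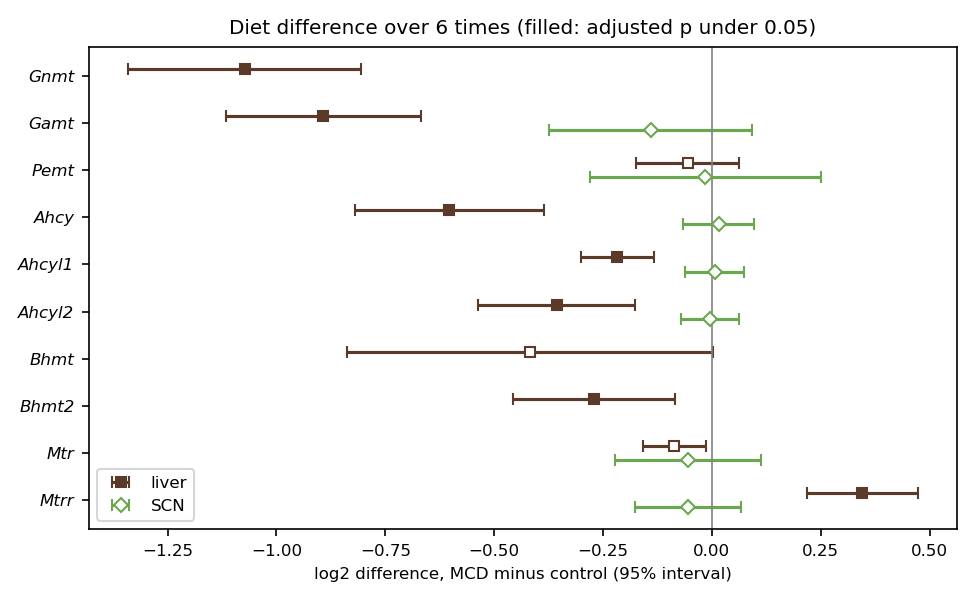
Log2 difference of MCD minus control, mean over 6 times, with 95% intervals for the members in liver (squares) and SCN (diamonds). Filled symbols passed an edgeR adjusted p under 0.05: Gnmt and Gamt in liver lie farthest below 0, Mtrr in liver lies above it, and all SCN intervals cover 0.

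Levels over the day were tested by a 24 h rhythm, whose amplitude is given on the log2 scale as the height of the fitted wave above its mean. In control liver 3 of 10 members were rhythmic (17.8% of all genes). Ahcy had an amplitude of 0.60 with its peak at 15.8 h (edgeR adjusted p = 0.00142), from a mean of 694 ± 27.7 CPM at CT4 to 1661 ± 318 CPM at CT12 (n = 3 each). Mtrr had 0.41 with its peak at 15.1 h (adjusted p = 2.56e-04), from 4.36 ± 0.826 CPM at CT4 to 8.66 ± 1.03 CPM at CT12. Ahcyl2 had 0.44 with its peak at 20.6 h (adjusted p = 0.00434), and at its highest mean, at CT0, the 3 libraries ran from 19.5 to 46.9 CPM. Without replicate 1 none of the 3 members was called. Within the mt-Nd6 kinds only Ahcy was called, in the low kind. Ahcyl2 was at 0.26 in the low kind (edgeR adjusted p = 0.232) and at 0.51 in the high kind (adjusted p = 0.183).

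On MCD 4 of 10 members were rhythmic in liver (28.2% of all genes). Ahcy (amplitude 0.51, peak 14.6 h, edgeR adjusted p = 0.00318) and Mtrr (0.38, 13.3 h, adjusted p = 2.71e-04) were again among them. Bhmt had the widest wave, 0.83 with a peak at 21.4 h (adjusted p = 0.0139), from 997 ± 118 CPM at CT12 to 3238 ± 1362 CPM at CT20. Mtr had a narrow wave of 0.13 with a peak at 9.93 h (adjusted p = 0.0255), and its 3 libraries at CT8, with 19.7, 20.0 and 20.2 CPM, lay above the other 15 on MCD. That call was lost without MCD CT20 2 (adjusted p = 0.0709). Ahcyl2 on MCD did not pass (amplitude 0.21, adjusted p = 0.194), and neither did Bhmt on the control diet (amplitude 0.56, peak 20.7 h, adjusted p = 0.148).

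The rhythm itself differed between diets in none of the 10 members in edgeR (4.87% of all genes). Mtr had an unadjusted p under 0.05 and was called by DESeq2 (adjusted p = 0.0435), and without control CT00 2 also by edgeR (adjusted p = 0.0257). Gnmt, whose level differed most by diet, passed no rhythm test on the control diet (adjusted p = 0.399) or on MCD (adjusted p = 0.0990), where it was called without MCD CT08 1 (adjusted p = 0.0245). Without control CT08 3, Bhmt (adjusted p = 0.0271), Bhmt2 (0.0217) and Ahcyl1 (0.0190) were called rhythmic on the control diet, which makes 6 in all.

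**Figure D3:**
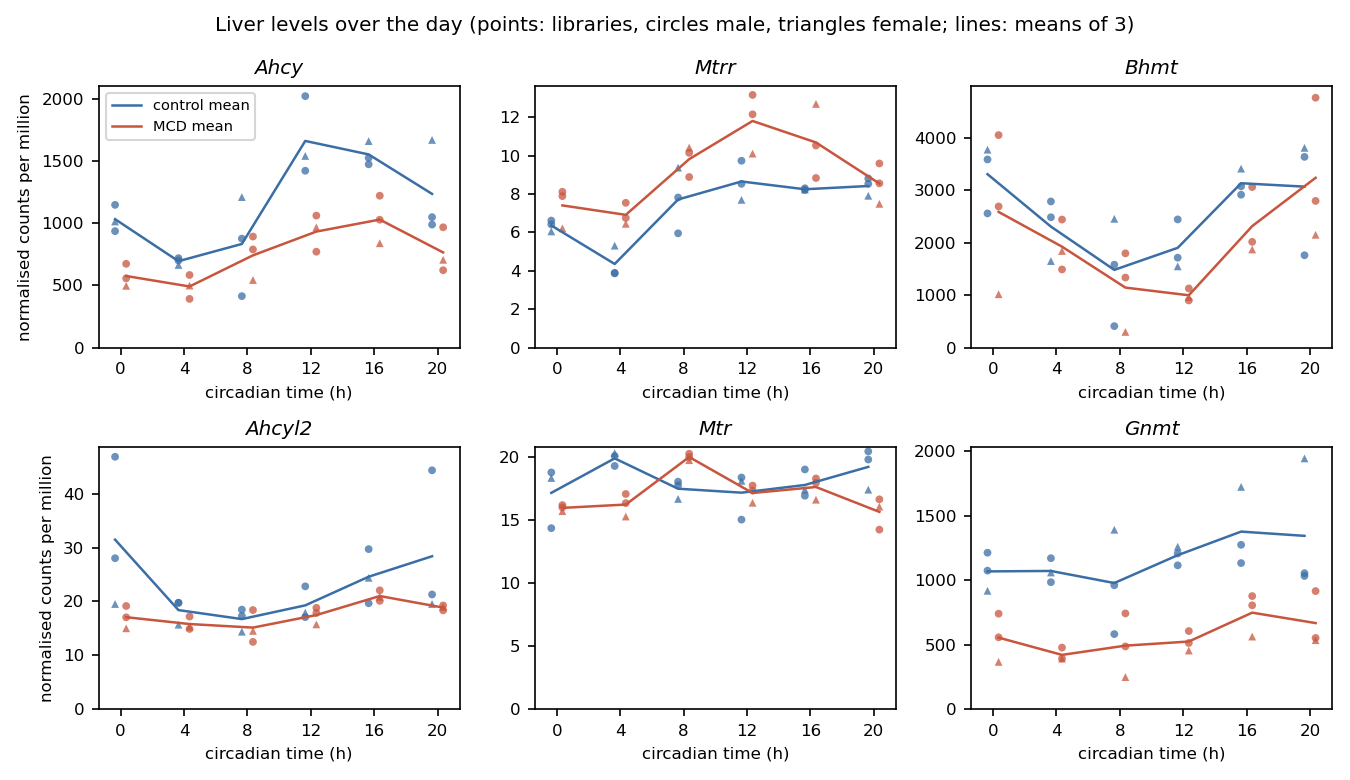
Normalised CPM (linear axis from 0) of 6 members in liver against circadian time in hours. Points are libraries (circles male, triangles female), shifted slightly by diet, and lines join the means of 3: Ahcy and Mtrr peak from CT12 to CT16 on both diets, Bhmt is lowest at CT8 or CT12, and the Gnmt mean on MCD lies below control at every time.

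The sexes were compared in liver over 12 male and 6 female libraries per diet. Replicate 3 was the female throughout, so sex and replicate number cannot be told apart. Pemt was higher in females by 0.20 (SE 0.0633, edgeR adjusted p = 0.0461), the only member called (9.44% of all genes), at 269 ± 24.0 CPM in female and 218 ± 20.4 CPM in male controls. On MCD the means lay closer, with females at 234 ± 25.0 CPM (n = 6) and males at 220 ± 33.0 CPM (n = 12), and the interaction of diet and sex was not called (adjusted p = 0.511). The call of Pemt by sex was lost in 27 of the 36 fits that left out 1 library, control CT08 a among them.

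Whether the diet difference was larger in females was tested by an interaction. Gnmt passed (-0.95, SE 0.222, edgeR adjusted p = 0.0224), the only member called (1.77% of all genes). Control females had 918 to 1945 CPM (median 1326) and MCD females 248 to 563 CPM (median 423), with 6 of 6 MCD females below every control female, as in 5.51% of all genes tested. Control males had 582 to 1275 CPM (median 1095) and MCD males 392 to 916 CPM (median 581). The lowest control male was control CT08 a, and the other control males, from 961 CPM, lay above every MCD male. The ratio of means was 3.24-fold lower in females and 1.67-fold lower in males. The call was lost when 1 of 5 female libraries was left out (control CT08 3, CT16 3 or CT20 3, MCD CT00 3 or CT08 3, adjusted p from 0.0504 to 0.0686), with values from -0.92 to -0.81. It was also lost without replicate 1 (-1.01, adjusted p = 0.0984) and without replicate 2 (-0.89, adjusted p = 0.424).

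The interaction was below 0 in 9 of 10 members, of which Gnmt alone passed the test, and its median over all genes was -0.036. The widest was that of Bhmt, at -1.07 (SE 0.417, edgeR adjusted p = 0.249), and Ahcy was at -0.49 (adjusted p = 0.335). Gamt was 2.55-fold lower on MCD in females (212 ± 33.3 to 82.8 ± 17.5 CPM, n = 6 each) and 1.59-fold lower in males (157 ± 36.7 to 98.4 ± 19.9 CPM, n = 12 each), with an interaction of -0.69 (SE 0.203, edgeR adjusted p = 0.0884). DESeq2 called it (adjusted p = 0.0268). Bhmt2 went from 274 ± 19.6 to 180 ± 28.5 CPM in females, with 6 of 6 MCD females below every control female (5.51% of all genes), and from 245 ± 51.7 to 227 ± 48.9 CPM in males (interaction -0.51, adjusted p = 0.182).

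**Figure D4:**
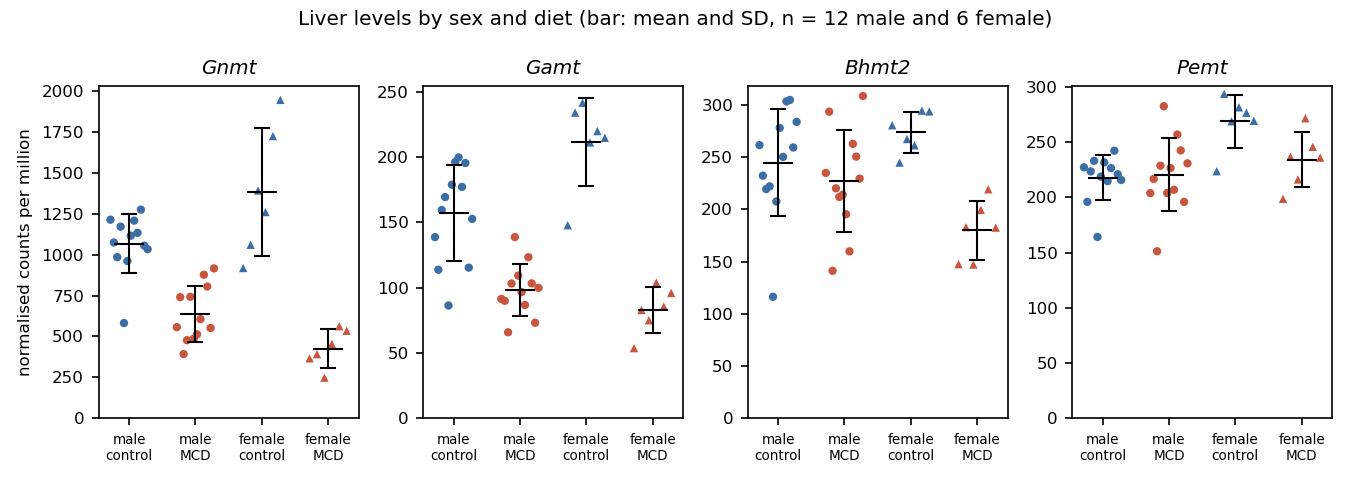
Normalised CPM (linear axis from 0) of Gnmt, Gamt, Bhmt2 and Pemt in liver by sex and diet, with the mean and SD of 12 male or 6 female libraries. MCD females lie below all control females for Gnmt, Gamt and Bhmt2, as for 5.51% of all genes, and males of both diets overlap for all 4 genes. For Gnmt the overlap of the males comes from control CT08 a alone.

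Other genes of the pathways around the members were taken from 10 lists of 46 genes in all, of which 43 were tested in liver, with 8 higher and 17 lower, against 25.3% higher and 21.2% lower of all genes tested. Their median difference was -0.03, against 0.02 over all genes. Mat2a, the S-adenosylmethionine synthetase gene known from most tissues other than adult liver, ran from 47.4 to 102 CPM on the control diet and from 119 to 326 CPM on MCD, with all 18 MCD libraries above all control libraries, as in 0.0889% of all genes tested. Its difference was 1.65 (edgeR adjusted p = 5.23e-15), and 1 of the 3 genes of that list was called. Of 6 other small-molecule methyltransferases, 4 were lower and 1 higher, and Inmt, which methylates indoleamines, was lowest at -1.59 (adjusted p = 3.10e-08), from 259 to 1218 CPM on the control diet and 108 to 451 CPM on MCD.

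Of 5 genes of betaine and dimethylglycine metabolism 4 were lower and none higher, with a median of -0.26. Of 6 genes of folate supply to methionine synthase 4 were lower and none higher, with a median of -0.39. These lists are small, and their counts are a description beside the shares over all genes. Of 6 cobalamin genes 1 was higher and 2 lower, and of the 6 genes of the CDP-choline route, the other way to phosphatidylcholine beside Pemt, none was called (adjusted p from 0.0583 to 0.954). Gatm, the enzyme before Gamt in creatine synthesis, was at 12.9 CPM on the control diet and 14.3 CPM on MCD (difference 0.14, edgeR adjusted p = 0.0559), and 2 of the 3 genes tested in the creatine list were higher. Adk, the kinase that removes the adenosine of the Ahcy reaction, was lower by -0.41 (adjusted p = 4.78e-06), and of 2 transsulfuration genes Cbs, which takes homocysteine toward cysteine, was lower by -0.16 (adjusted p = 0.00864).

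In SCN none of the 7 members listed differed between diets in edgeR (0.0635% of all 15759 genes were called), none had an unadjusted p under 0.05, and DESeq2 called none. The differences ran from -0.14 for Gamt to 0.02 for Ahcy. Ahcyl1 was at 332 ± 24.1 CPM on the control diet and 333 ± 27.5 CPM on MCD (n = 18 each), with a 95% interval of the difference from -0.06 to 0.07. Ahcy was at 35.6 to 48.4 and 33.6 to 54.0 CPM (95% interval -0.07 to 0.10). For Gamt, at 3.24 to 12.2 and 3.65 to 9.96 CPM, the interval was wider, from -0.37 to 0.09. Of the 39 list genes tested in SCN, 1 was called, Mat2a (0.31, edgeR adjusted p = 0.0150). Its medians were 138 CPM on the control diet and 149 CPM on MCD, with 8 MCD libraries above every control library and 4 below every one.

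The diet difference in SCN minus that in liver was tested directly for the 7 members in both tables. It passed in 5 (34.7% of all genes): Gamt (0.75, SE 0.163, edgeR adjusted p = 2.65e-04), Ahcy (0.62, SE 0.118, adjusted p = 4.31e-05), Ahcyl2 (0.36, adjusted p = 0.00398), Ahcyl1 (0.23, adjusted p = 7.81e-04) and Mtrr (-0.40, adjusted p = 3.88e-04). Mtr (0.04) and Pemt (0.03) did not pass. With library totals alone Ahcyl1 and Ahcyl2 were not called.

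Over the day in SCN, none of the 7 members was rhythmic on the control diet in edgeR (15.1% of all genes), although 3 had an unadjusted p under 0.05 (Ahcy, Ahcyl2, Mtrr), and DESeq2 called none. On MCD 3 were called (16.1% of all genes). Mtr had an amplitude of 0.35 and a peak at 8.91 h (edgeR adjusted p = 0.0146), with its highest mean, 21.6 ± 3.13 CPM, at CT8 and its lowest at CT0. Mtrr had 0.24 with a peak at 11.7 h (adjusted p = 0.0245), and Ahcy 0.17 with a peak at 1.60 h (adjusted p = 0.0174). Each of these calls was lost in 1 to 3 of the 36 fits without 1 library (Mtr without MCD CT20 3, Ahcy without MCD CT00 3, CT12 3 or CT16 3, Mtrr without MCD CT00 3, CT08 2 or CT12 1). The rhythm did not differ between diets in any member (0.0127% of all genes, unadjusted p under 0.05 in Mtrr, none by DESeq2). Mtr was lower in females by -0.30 (adjusted p = 0.0348, 9.89% of all genes), at 14.8 ± 3.36 CPM in 12 female and 18.3 ± 4.01 CPM in 24 male libraries, and 9 of the fits without 1 library lost that call.

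The members differed between tissues in both directions. Tissue and RNA preparation (left lobe or laser microdissection) cannot be told apart here. In a fit of both tissues, where 91.3% of genes differed, control SCN had less Pemt (97.2-fold, log2 difference -6.60), Ahcy (51.4-fold, -5.68), Gamt (50.7-fold, -5.66) and Mtr (2.16-fold, -1.11) than control liver. It had more Ahcyl2 (4.20-fold, 2.07), Ahcyl1 (1.43-fold, 0.52) and Mtrr (1.29-fold, 0.36), and all 7 passed the edgeR test. With library totals alone the median of all genes moved from 0.03 to 0.75, and Ahcyl1 was at 1.24, Mtrr at 1.08 and Mtr at -0.39, with the same signs and calls. Levels per kilobase, by contrast, were scaled within each tissue and are not compared between tissues. Within control SCN the order per kilobase was Ahcyl1 (49.6 ± 3.61 CPM per kb), Ahcy (15.6 ± 1.37) and Ahcyl2 (10.0 ± 0.824), with no overlap between their 18 libraries. Gamt (4.77 ± 1.44), Mtrr (3.53 ± 0.491), Pemt (2.36 ± 0.711) and Mtr (2.04 ± 0.509) followed, each overlapping its neighbour.

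The exon-bin files, which also list the 3 members without a row in the SCN gene table, gave their levels there. Gnmt had a median of 7 counts per SCN library (0 to 74), and 9 of 36 libraries had none. Bhmt had 23 counts and Bhmt2 39 counts in all 36 libraries together, with a median of 0. In liver the medians over 34 libraries were 64834.5 counts for Gnmt, 106682 for Bhmt and 12184 for Bhmt2. The 2 other liver exon files, control CT00 1 and 2, were incomplete and not used.

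Use of exon bins did not differ by diet for any member in liver by the gene-level Simes test of edgeR (6.17% of all genes, none with an unadjusted p under 0.05). In SCN none was called either (0.93% of all genes, with an unadjusted p under 0.05 for Ahcyl1 and Ahcyl2). An F test over the bins called Pemt in liver (adjusted p = 0.00801). Between tissues, 6 of the 7 members tested were called (77.0% of all genes): Pemt, Ahcyl1, Ahcyl2, Mtr, Ahcy and Gamt, with Mtrr at an adjusted p of 0.0568. With bins of at least 20 counts on average, Ahcy (adjusted p = 0.496) and Gamt (0.131) were not called and Mtrr was (2.73e-04).

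In Pemt, bins 16 and 17 took 5.83 ± 0.304% of its counts in 34 liver libraries (5.32% to 6.42%) and 0 of 11674 counts in 36 SCN libraries, which allows a share of up to 0.0257% at 3 counts. These bins were not part of the tissue test, and the limit covers counting error only. Bins 20 to 24 took 0.448 ± 0.137% in liver and 10.8 ± 6.48% in SCN, and bins 5 and 12 took 0.128 ± 0.0441% and 4.25 ± 3.31%. Of the tested bins, bin 21 was higher in SCN relative to the rest of the gene by 4.92 on the log2 scale (edgeR adjusted p = 1.74e-35) and bin 15 lower by -1.08 (adjusted p = 0.00123). The deposited files number the bins without positions, so they are not placed on the gene here.

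Among the other members, single bins took a larger share in SCN than in liver. In all comparisons of exon bins between tissues, Pemt included, tissue and RNA preparation (left lobe or laser microdissection) cannot be told apart. Mtr bin 1 took 63.9 ± 11.6% of the Mtr counts in control SCN and 28.8 ± 3.24% in control liver (adjusted p = 0.0167, n = 18 and 16). For Ahcyl2 bin 68 the control shares were 45.97 ± 8.41% and 30.99 ± 2.52% (adjusted p = 0.0286). For Ahcyl1 bin 2 they were 23.4 ± 4.54% and 12.6 ± 0.645% (adjusted p = 1.66e-04). The tissue test used the control diet alone, and on MCD (n = 18 each) the shares in SCN and liver were 62.9% and 27.6% for Mtr, 42.4% and 30.8% for Ahcyl2, and 22.2% and 12.2% for Ahcyl1.

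**Figure D5:**
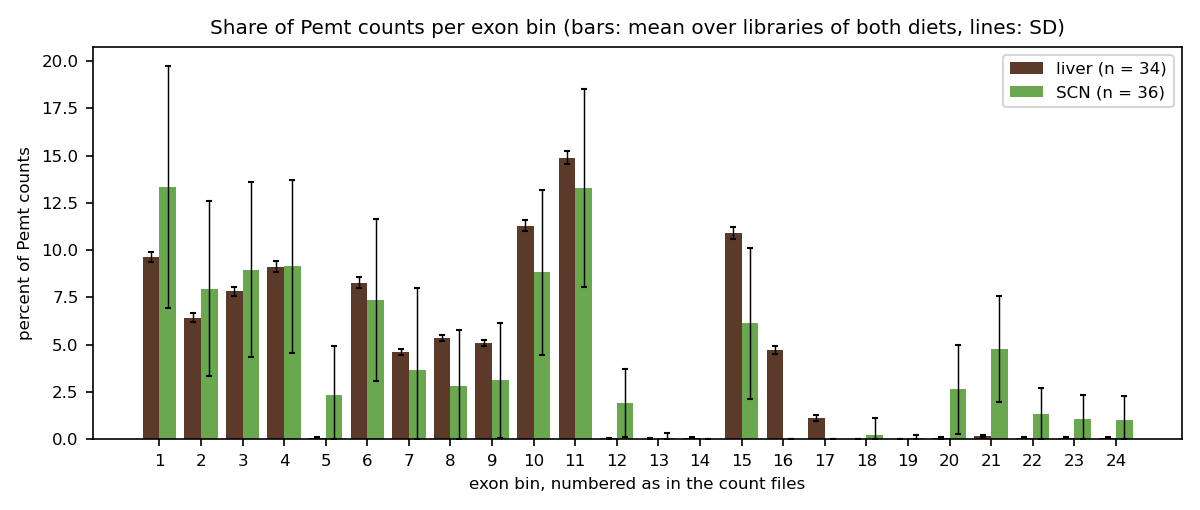
Share of Pemt counts in each of 24 exon bins, in percent (linear axis from 0), as the mean over 34 liver and 36 SCN libraries of both diets with SD. Bins 16 and 17 hold counts in liver only, bins 20 to 24 and 5 and 12 are nearly empty in liver, and the SCN libraries, with 106 to 750 Pemt counts each, spread more than the liver libraries.

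Reads of near-identical copies bear on 2 members. The gene named Ahcyl in the count tables (Gm4737 in GENCODE M21, and other than Ahcyl1 and Ahcyl2) shared 93.2% of its 31-base words with Ahcy in M21, and in liver its level was 46.8% to 50.9% of that of Ahcy in every library. Gm9826 shared 77.9% with Ahcy, and Gm5096 and Bhmt-ps1 shared 85.0% and 75.1% with Bhmt. How the deposited counting divided such reads is not given in the sources used here. With the copies summed, Ahcy was at -0.61 and Bhmt at -0.42 by diet in liver, and neither call changed, while Ahcy in control SCN became rhythmic (edgeR adjusted p = 0.0474). On the opposite strand Gm26904 overlaps the whole of Gnmt (3505 bases), and Gm45609, 4930528J11Rik and Gm15622 overlap parts of Ahcy, Ahcyl2 and Bhmt, and whether the counting used the strand is not given either.

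The genes most like each member over the 12 means of diet and time in liver (Pearson's r of log2 level, 13832 genes) were described without a test, since the means share libraries and the diet difference. For Gnmt they were Aldh1l1 and Ankrd33b (both r = 0.99), for Gamt Fahd2a (0.98) and Inmt (0.97), and for Bhmt2 Mpst and Uck1 (both 0.98). For Mtrr they were Pgm2l1 (0.94) and Tbl2 (0.93), for Pemt Gapdh and Slc16a10 (both 0.88), and for Mtr Pwwp3a (0.87) and Jph1 (0.86). For Ahcyl1 they were Rps2-ps13 (0.98) and Chchd2 (0.97), and for Ahcyl2 Abhd5 (0.95) and Hdhd5 (0.93). Ahcy and Bhmt were most like their own copies (Ahcyl and Gm9826, Gm5096 and Bhmt-ps1, all 1.00). Among members, Gnmt went with Gamt (0.89) and Ahcyl1 (0.87), and Ahcy with Ahcyl1 (0.85). Bhmt went with its neighbour Bhmt2 (0.79) and much less with Ahcy (0.20), and Mtrr lay between -0.42 (Bhmt) and 0.32 (Ahcy) with the other 9.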

How the data were processed

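Gene counts of 36 liver and 36 SCN libraries were used as the authors deposited them, as raw counts per gene, and exon-bin counts as deposited per library. Of the numbered exon-bin files, 32 of 34 in SCN and 32 of 32 in liver best matched the gene counts of the same name. All were used by name. The submitters' processing notes name Trimmomatic, HISAT2, StringTie, DESeq2 and the build GRCm39; no source used here gives versions, the counting step or whether it used the strand. Positions came from GENCODE M21 (GRCm38) by gene ID and promoters from RefSeq (GRCm38.p6), so no coordinate is in the files' build. Both gene tables hold a pair of columns with 1 name, called control CT08 a and b here, and 2 incomplete liver exon-bin files were not used.

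Per tissue, genes past edgeR's count filter (minimum 10) were fitted with edgeR 4.0.16 in R 4.3.3, with TMM scaling and a robust quasi-likelihood fit over 12 groups of diet and time plus sex. The diet difference was averaged over the 6 times, rhythm was the joint test of a 24 h sine and cosine, and p-values were Benjamini-Hochberg adjusted over all genes. Fits within 1 mt-Nd6 kind used a mean and a 24 h sine and cosine per diet in place of the 12 groups. Tissues were compared in 1 fit of 72 libraries treated as independent, and exon bins with edgeR's diffSpliceDGE and the Simes rule. The fits were also run on simulated counts. The changes set there for genes were larger than most of those of the members. No kind of library and no outlying library was simulated. The labels number the libraries without saying that each came from its own mouse, so p-values measure only the spread between these libraries, which may be technical. Alternatives were library totals or RLE scaling, no count filter, DESeq2 1.42.0, leaving out replicates or libraries, the replicate number as a block and the mt-Nd6 kind; summing near-identical copies was chosen after seeing the data. Intervals are 95% normal intervals.

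Members, gene lists and markers were chosen with earlier results of these data known. All members are named with values; beside them, the 2 genes most like each in liver (mean CPM of at least 1, pseudocount 0.1), and list genes where the list has a called member past 1 on the log2 scale or a direct partner of a member.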

Additional observations from a re-analysis of the deposited data

Results flagged for a closer look

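The diet difference of Gnmt in liver differed between the sexes by -0.95 on the log2 scale (female minus male), by the interaction term of edgeR. The diet difference in SCN minus that in liver differed from 0 by edgeR's test for 5 members: Gamt by 0.75, Ahcy by 0.62, Ahcyl2 by 0.36, Ahcyl1 by 0.23 and Mtrr by -0.40. In each of these 5 members the liver difference passed the test and the SCN difference did not.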

How the results depend on the processing

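Counts of members called are given here, without the share of all genes called under each alternative. For the liver diet mean, 7 in the analysis as reported, 4 were called within the high mt-Nd6 kind, and 6 to 9 when libraries or replicates were left out. With library totals alone, Ahcyl1 (0.038), Mtr (0.17) and Pemt (0.20) reversed, as did Mtr at CT4 (0.014) and CT12 (0.37) and Pemt at CT12 (0.32); that scaling moved the median of all genes to 0.27, with 10633 higher and 1540 lower against 5130 and 4296. For the 60 pairs of member and time (14 called) the count was 9 with library totals alone, 22 with the replicate block, 22 with DESeq2, 22 without control CT08 a, and 0 to 22 with libraries or replicates left out.

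Rhythm on the control diet in liver was called in 1 and 0 members within the low and high kind and in 0 to 6 with libraries or replicates left out. On MCD it was 0 within the high kind and 1 to 5 with libraries or replicates left out. DESeq2 called 1 difference in rhythm, and leaving out libraries gave 0 to 1. For SCN rhythm on MCD DESeq2 called 5 and leaving out libraries or replicates gave 0 to 5; on the control diet the copies summed gave 1 and leaving out libraries 0 to 1.

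The sex call in liver (Pemt) went to 0 with the replicate block, with the kind as a term and without control CT08 a, and that in SCN (Mtr) to 0 with the block; leaving out libraries or replicates gave 0 to 1 for both. The interaction of diet and sex was called in 3 with library totals alone, 2 with DESeq2, 0 with the block, and 0 to 2 with libraries or replicates left out. The difference between tissues in the diet effect was called in 3 with library totals alone and 4 to 5 with replicates left out; single libraries were not left out there. An F test called 1 liver member for exon use by diet. Where no cause is named above, the cause was not tested.

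Libraries of the same number and time did not all deviate together between the diets (r from -0.31 to 0.22 in liver and -0.17 to 0.25 in SCN, with 5 and 4 of 16 pairs over 0.1). These pairs lie within 1 time, so a batch across times or within 1 diet would not show in them. The replicate block also leaves out control CT08 a and b because they carry no number. It called 8 members for the liver diet mean, with Bhmt added (-0.60, edgeR adjusted p = 0.0153). With the block these calls were also lost: Ahcyl2 rhythm on the control diet in liver (amplitude 0.45, adjusted p = 0.0625), the Pemt sex difference (0.17, adjusted p = 0.0925), the Gnmt interaction of diet and sex (-0.84, adjusted p = 0.0504) and the SCN sex difference of Mtr (-0.29, adjusted p = 0.0549). Ahcyl2 rhythm on MCD in SCN gained one (0.12, adjusted p = 0.0488), as did 8 pairs of member and time in liver and Mtrr exon use between tissues (adjusted p = 0.0426). Over all single members and alternatives, 207 values lost and 139 gained a call with the same sign, and 6 that were called in either fit changed sign (given above); values called in neither fit could change sign and are not among these. The lowest SCN levels, of Pemt and Gamt, limit what could be detected there.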
